A study of Rattus norvegicus with 94 samples.

Results

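The Cyp1 family of cytochrome P450 enzymes and the receptor that governs it, Ahr, were followed in rat liver after a single dose of clofibrate, di(2-ethylhexyl) phthalate (DEHP) or sodium valproate (VPA). All probe sets that the platform table assigns to Cyp1a1, Cyp1a2, Cyp1b1 or Ahr were taken, which gave 12 of the 8799 probe sets of the array, for 4 of its 4737 gene symbols. Cyp1a1 had 1 probe set, Cyp1a2 had 3, and Cyp1b1 and Ahr had 4 each. No member probe set carried another symbol beside its own. A probe set is a group of short probes that together give 1 signal for a transcript.

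The liver RNA came from male SD rats, and the labels give no age. Clofibrate was given at 1000 mg/kg in saline, VPA at 2000 mg/kg in distilled water and DEHP at 20 g/kg in distilled water. Treated animals were killed 4, 24, 48 or 168 h after the dose. Each compound had its own vehicle animals, at 48 and 168 h alone, so the 4 and 24 h groups were set against their compound's 2 vehicle groups, averaged with equal weight. The 76 arrays of 1 animal each formed 18 groups of 3 to 5 animals, and 18 further arrays held pooled RNA, 1 for each group.

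The aryl hydrocarbon receptor, encoded by Ahr, is a transcription factor held in the cytosol by chaperones until a ligand such as a dioxin or a polycyclic aromatic hydrocarbon binds it. It then enters the nucleus, pairs with Arnt and binds short DNA elements near its target genes, among them Cyp1a1, Cyp1a2 and Cyp1b1. In liver, Cyp1a2 is made constitutively, mainly by hepatocytes around the central vein, and oxidises caffeine and aromatic amines, whereas Cyp1a1 is low until the receptor is activated and Cyp1b1 is mainly an enzyme of tissues outside the liver. Clofibrate and DEHP act in rodent liver through the peroxisome proliferator receptor Ppara, and VPA is an anticonvulsant fatty acid that also inhibits histone deacetylases.

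The promoters of Cyp1a2, the member with a measurable change, and of Cyp1b1, a member with hardly any signal, are shown because they differ in the core element of the receptor. Each sequence is the 250 bases before the gene start in RefSeq (GRCr8), written 5′ to 3′ on the gene's strand. Capitals mark the receptor core GCGTG, searched on both strands, and the TATA motif TATAAA, searched likewise.
Cyp1a2, chr8:66978150-66978399, minus strand: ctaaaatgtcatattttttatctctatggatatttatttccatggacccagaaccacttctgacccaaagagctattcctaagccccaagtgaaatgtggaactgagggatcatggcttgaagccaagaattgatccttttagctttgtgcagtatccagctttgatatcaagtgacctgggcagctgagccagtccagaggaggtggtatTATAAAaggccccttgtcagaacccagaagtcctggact
Cyp1b1, chr6:21094315-21094564, plus strand: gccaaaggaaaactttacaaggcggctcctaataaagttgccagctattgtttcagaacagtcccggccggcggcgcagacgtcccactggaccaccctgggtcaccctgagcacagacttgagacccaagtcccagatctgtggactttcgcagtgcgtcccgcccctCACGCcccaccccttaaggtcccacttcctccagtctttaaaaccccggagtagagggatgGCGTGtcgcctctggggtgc
The Cyp1a2 window held TATAAA once, 39 bases before the start, and no GCGTG. The Cyp1b1 window held GCGTG at 2 places, 81 and 20 bases before the start, and no TATAAA. The Ahr window held neither motif, with a GC content of 75.2% against 44.0% for Cyp1a2. Of 33469 promoter windows of this length, 25.9% held GCGTG and 12.9% held TATAAA, so a match is a description of the letters and not of a binding site. In the RefSeq annotation no gene lies between Cyp1a1 and Cyp1a2, which are neighbours on 1 chromosome.

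Cyp1a2 fell 24 and 48 h after each of the 3 compounds and was no longer called different from vehicle at 168 h. The fall at 48 h was 4.46-fold after clofibrate, 4.07-fold after DEHP and 1.98-fold after VPA on the brightest Cyp1a2 probe set, M26127_s_at. At 4 h no compound had moved it past the test.

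The clofibrate animals showed it as follows. M26127_s_at read 15887, 8330, 5710, 6492 and 7764 in the 5 vehicle animals of 48 h, a mean of 8837 ± 4074 (SD, n = 5). In the 5 clofibrate animals of 48 h it read 1260, 2241, 2770, 2368 and 1159, with a mean of 1960 ± 713 (SD, n = 5). The highest treated animal lay below the lowest vehicle animal. The 3 clofibrate animals of 24 h read 3824, 4448 and 2256, with a mean of 3509 ± 1129 (SD, n = 3), and those of 4 h read 5874, 13751 and 8301. Every 24 h animal was below every vehicle animal, whereas the 4 h animals spread over the vehicle range. At 168 h the clofibrate animals read 11970, 6286, 7476, 6431 and 7150 and their vehicle animals 6718, 8151, 7490, 6706 and 12340, so the groups overlapped.

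After DEHP the vehicle animals of 48 h read 11987, 12420, 10785, 10400 and 12103, with a mean of 11539 ± 889 (SD, n = 5). The DEHP animals of 48 h read 2331, 1181, 4676, 3045 and 4631, with a mean of 3173 ± 1506 (SD, n = 5). Those of 24 h read 4669, 3106 and 2504, and at neither time did a treated animal reach the vehicle range. The 3 animals of 4 h read 10128, 9975 and 5825, all below the lowest of the 10 DEHP vehicle animals, though the difference at 4 h was not called. At 168 h the DEHP animals read 7857, 8801, 8847, 7310 and 8142, with a mean of 8191 ± 650 (SD, n = 5). Their vehicle animals read 11968, 14149, 10595, 13920 and 11899, with a mean of 12506 ± 1501 (SD, n = 5), so the DEHP and vehicle animals did not overlap 168 h after the dose.

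After VPA the vehicle animals of 48 h read 12628, 11776, 11724, 9398 and 13342, with a mean of 11774 ± 1486 (SD, n = 5). The VPA animals of 48 h read 5637, 7692, 6924 and 4082, with a mean of 6084 ± 1581 (SD, n = 4). The VPA animals of 24 h read 4546, 5041 and 8652, and the highest of them was still below the lowest vehicle animal. Those of 4 h read 11158, 9026 and 8036. At 168 h the VPA animals read 15465, 12912, 10721 and 14666 against 14797, 15230, 16484, 11787 and 11715 in vehicle, 2 ranges that lay over each other.

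**Figure D1:**
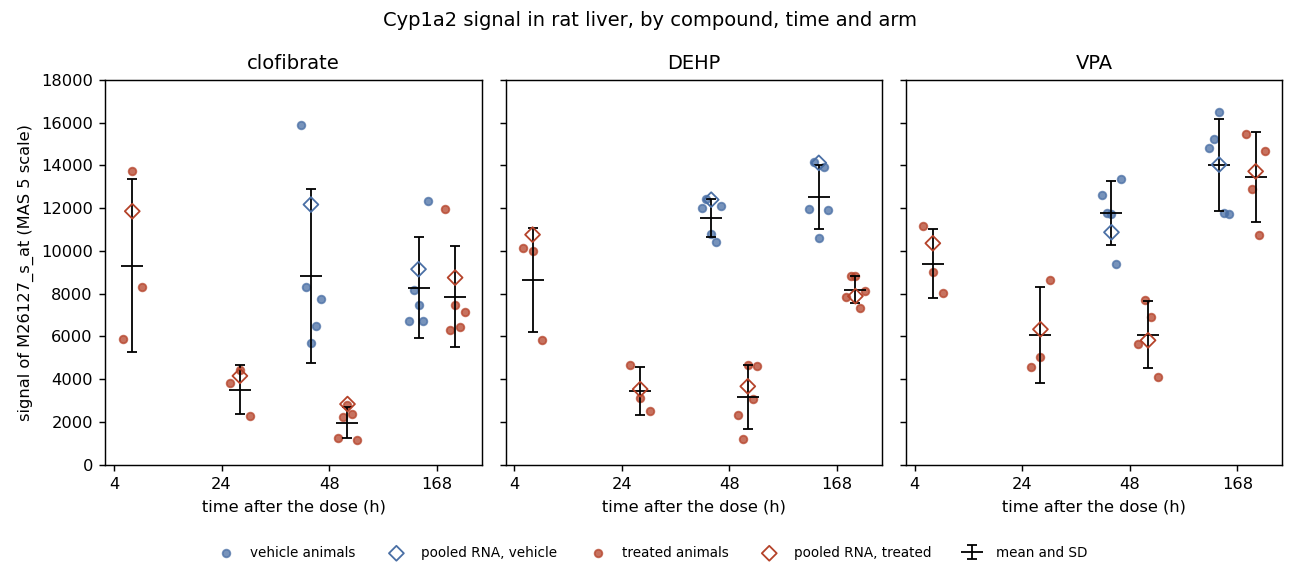
Signal of the Cyp1a2 probe set M26127_s_at (linear MAS 5 scale, from 0) against time after the dose for the 3 compounds. Dots are animals, open diamonds the pooled RNA of a group, and bars the mean and SD of the animals. The clofibrate animals of 48 h lie between 1159 and 2770, below all their vehicle animals, and by 168 h the clofibrate and VPA animals lie among vehicle animals while the DEHP animals lie below them.

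Signals were raised to a floor of 150, taken to log2 and fitted with limma, with Benjamini-Hochberg adjustment over all probe sets whose mean signal reached 500 in at least 1 group of a fit. A probe set is called at an adjusted p below 0.05, and log2 differences are treated minus vehicle with their standard error. After clofibrate M26127_s_at differed by 0.10 ± 0.32 at 4 h (limma adjusted p = 0.907), -1.27 ± 0.32 at 24 h (adjusted p = 0.00765), -2.16 ± 0.30 at 48 h (adjusted p = 1.23e-05) and -0.08 ± 0.30 at 168 h (adjusted p = 1). Of all 3616 probe sets tested for clofibrate, 3.43% were called at 4 h, 13.5% at 24 h, 20.0% at 48 h and 0% at 168 h, where 78 had an unadjusted p below 0.05. Without the clofibrate animal of 24 h with the lowest signal (replicate 3), the 24 h difference was no longer called (adjusted p = 0.081).

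After DEHP the log2 difference of M26127_s_at was -0.51 ± 0.27 at 4 h (limma adjusted p = 0.365; -0.25 without replicate 3), -1.85 ± 0.27 at 24 h (adjusted p = 7.42e-06), -2.02 ± 0.26 at 48 h (adjusted p = 9.89e-07) and -0.61 ± 0.26 at 168 h (adjusted p = 0.266). The share of the 4092 probe sets called for DEHP was 2.88% at 4 h, 32.6% at 24 h, 33.8% at 48 h and 3.62% at 168 h. The gap of 168 h thus separated all animals on this probe set without passing the test across all probe sets. How many of all probe sets separated the animals in this way was not counted, here or for any other separation of treated from vehicle animals given for Cyp1a2. In a fit of only the 2 groups compared it was called (adjusted p = 0.00426).

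After VPA the log2 difference of M26127_s_at was -0.45 ± 0.19 at 4 h (limma adjusted p = 0.0885), -1.13 ± 0.19 at 24 h (adjusted p = 5.76e-05), -0.98 ± 0.19 at 48 h (adjusted p = 0.00022) and -0.06 ± 0.19 at 168 h (adjusted p = 0.975). Of the 4269 probe sets tested for VPA, 21.2% were called at 4 h, 36.5% at 24 h, 39.7% at 48 h and 0% at 168 h, where 326 had an unadjusted p below 0.05. Cyp1a2 was therefore called at times when a large share of all measured transcripts was called too. The 4 h difference of VPA was called when each array was centred on its median (-0.59, adjusted p = 0.0268) and in a fit of only the groups compared (adjusted p = 0.0381).

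The time course was tested within each compound. Cyp1a2 was lower at 24 h than at 4 h after clofibrate, by a log2 difference of -1.38 ± 0.39 (limma adjusted p = 0.0397), and after DEHP, by -1.34 ± 0.33 (adjusted p = 0.00425). The clofibrate step was not called with no filter (adjusted p = 0.0979), with the replicate block (adjusted p = 0.0666) or without any 1 of 4 of its 6 animals, replicates 2 and 3 of 4 h and 1 and 3 of 24 h (adjusted p up to 0.248). After VPA this step was -0.68 ± 0.23 (adjusted p = 0.0569). The share of all probe sets called between 4 and 24 h was 5.12% for clofibrate, 21.6% for DEHP and 11.8% for VPA. From 24 to 48 h M26127_s_at changed by -0.87 ± 0.35 after clofibrate, -0.23 ± 0.29 after DEHP and 0.02 ± 0.22 after VPA, and no compound passed the test (adjusted p = 0.518, 0.746 and 0.985 in limma). The background of that step was 0.277% for clofibrate, 3.15% for DEHP and 3.89% for VPA.

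The return towards vehicle was tested as the treated-minus-vehicle difference at 168 h against that at 48 h. It passed the test for each compound on M26127_s_at, with log2 differences of 2.08 ± 0.43 for clofibrate (limma adjusted p = 0.00285), 1.42 ± 0.36 for DEHP (adjusted p = 0.00992) and 0.92 ± 0.27 for VPA (adjusted p = 0.0139). Of all probe sets 5.89% were called in this test for clofibrate, 13.6% for DEHP and 23.5% for VPA. The vehicle groups of 168 and 48 h differed by -0.03 ± 0.30 in the clofibrate set, 0.11 ± 0.26 in the DEHP set and 0.25 ± 0.18 in the VPA set, with limma adjusted p = 1, 1 and 0.98. No probe set at all was called between vehicle groups (0% in each set), with 114, 179 and 186 probe sets at an unadjusted p below 0.05.

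The compounds were compared with each other through their responses, each treated group minus its own vehicle, in 1 fit of all 76 arrays with 12 tests of M26127_s_at. The doses differ in size, unit and vehicle, so a difference is one between these treatments and not between compounds at a matched dose. The compound sets were also scanned on separate days. The log2 3′/5′ ratio of control probe sets, described below, averaged 1.38 in the clofibrate set against 0.33 for DEHP and 0.34 for VPA. Neither scan day nor that ratio was held in this fit, so their part cannot be told apart from that of the compound. Only VPA against clofibrate at 48 h was called. There the fall was smaller after VPA by 1.18 ± 0.38 on the log2 scale, with a 95% interval from 0.41 to 1.94 (limma adjusted p = 0.0332). VPA against DEHP at 48 h gave a similar size, 1.04 ± 0.38 with an interval from 0.28 to 1.80, and missed the threshold (adjusted p = 0.0821). DEHP against clofibrate at 48 h gave 0.13 ± 0.37, with an interval from -0.61 to 0.87, which does not show that they act alike. Of the 4503 probe sets of this fit, 11.3%, 7.97% and 2.07% were called at 48 h in these 3 comparisons. The VPA and clofibrate difference did not stay past the threshold under every setting: adjusted p was 0.0557 after median centring, 0.0903 after quantile normalization, 0.0602 with no filter and 0.0582 with the replicate block, and from 0.0647 to 0.0922 without any 1 of 6 of the 19 animals.

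At 24 h the response of M26127_s_at differed by 0.15 ± 0.39 for VPA against clofibrate, 0.73 ± 0.39 for VPA against DEHP and -0.58 ± 0.39 for DEHP against clofibrate, none called (limma adjusted p = 0.871, 0.354 and 0.556). The shares of all probe sets called in these were 8.86%, 4.62% and 2.20%. At 4 h the same 3 differences were -0.55, 0.06 and -0.62, with 4.33%, 4.29% and 0.266% of all probe sets called, and at 168 h they were 0.02, 0.55 and -0.53, with 0%, 0.777% and 0.777% called. At 168 h 154 probe sets had an unadjusted p below 0.05 for VPA against clofibrate, and M26127_s_at was called at neither time. The other Cyp1a2 probe sets were called in none of the 12 comparisons of compounds.

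The other Cyp1a2 probe sets, E01184cds_s_at and K03241cds_s_at, were also called at 24 and 48 h after DEHP and VPA and varied more between animals after clofibrate. At 48 h after DEHP E01184cds_s_at averaged 2338 ± 701 (SD, n = 5) against 9612 ± 758 (SD, n = 5) in vehicle, a log2 difference of -2.09 ± 0.22 (limma adjusted p = 5.07e-08). K03241cds_s_at averaged 974 ± 609 (SD, n = 5) against 6284 ± 878 (SD, n = 5), a difference of -2.99 ± 0.39 (adjusted p = 1.76e-06). Both fell at 24 h after DEHP as well, with log2 differences of -2.15 and -2.26. After VPA E01184cds_s_at differed by -1.13 ± 0.26 at 24 h and -1.04 ± 0.27 at 48 h, and K03241cds_s_at by -1.25 ± 0.23 and -1.18 ± 0.23, all called. At 168 h after DEHP the 2 probe sets also lay below vehicle in every animal, with differences of -0.73 ± 0.22 (adjusted p = 0.063) and -0.62 ± 0.39 (adjusted p = 0.528). The gap of K03241cds_s_at was narrow, with treated animals up to 4592 and vehicle animals down to 4649. The Cyp1a2 probe sets were read in the same animals, so they do not count as separate evidence. The calls of both probe sets after VPA were lost when all 18 groups were fitted together, where adjusted p ran from 0.0752 to 0.204. For E01184cds_s_at after DEHP at 168 h adjusted p was 0.0492 with quantile normalization, 0.0487 with a filter of 1000, 0.0498 with array weights and 0.0112 in a fit of only the groups compared, where K03241cds_s_at was called too (0.0297).

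In the clofibrate set E01184cds_s_at and K03241cds_s_at were not called at any time in the compound's own fit. With all 18 groups in 1 fit E01184cds_s_at was called at 24 h (adjusted p = 0.0369) and 48 h (adjusted p = 0.0025), and with scan day as a block at 48 h (adjusted p = 0.0354). At 48 h E01184cds_s_at ranged from 326 to 2317 in the 5 treated animals and from 1772 to 16728 in the 5 vehicle animals, a difference of -1.75 ± 0.67 (limma adjusted p = 0.0698). K03241cds_s_at ranged from 11.3 to 1204 in treated and from 295 to 6681 in vehicle animals, a difference of -1.59 ± 0.96 (adjusted p = 0.263). The 2 ranges overlapped on each probe set, and K03241cds_s_at was under the floor in 4 of the 26 clofibrate arrays.

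**Figure D2:**
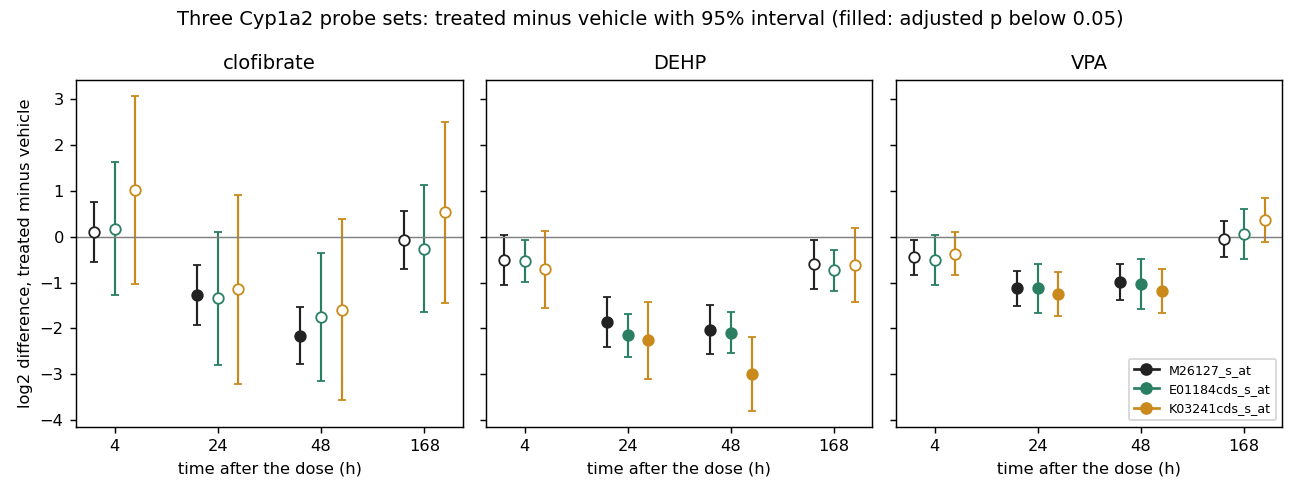
Log2 difference, treated minus vehicle, of the 3 Cyp1a2 probe sets at 4, 24, 48 and 168 h for each compound, with 95% intervals from the limma fit. Filled points have an adjusted p below 0.05. After DEHP and VPA all 3 probe sets are filled at 24 and 48 h, with the fall of K03241cds_s_at at 48 h after DEHP reaching -2.99, and in the clofibrate panel only M26127_s_at is filled, at 24 and 48 h, while the intervals of K03241cds_s_at reach from -3.57 to 0.38 at 48 h.

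The clofibrate arrays also differed from the others in their control probe sets. The 3′/5′ ratio of the Gapdh and beta-actin controls on the log2 scale, which rises when the RNA or its labelled copy is shortened, averaged 1.38 ± 0.65 (SD, n = 26) there against 0.33 ± 0.14 (SD, n = 26) in the DEHP set and 0.34 ± 0.14 (SD, n = 24) in the VPA set. Across the 26 clofibrate arrays the log2 signal of E01184cds_s_at relative to M26127_s_at went down as that ratio went up, with Pearson r = -0.87 (permutation p = 1e-05, the smallest that 100000 resamples can give) and Spearman rho = -0.86 (permutation p = 1e-05). For K03241cds_s_at r was -0.72 (permutation p = 6e-05) and rho -0.85 (permutation p = 1e-05). Without the 2 arrays of the most extreme ratio r was -0.85 and -0.74. The permutations exchanged arrays across groups and scan days. The mean ratio of the clofibrate groups ran from 1.00 in the 4 h animals to 1.77 in the 48 h vehicle animals. A part of group or scan day in these relations was not tested. After Benjamini-Hochberg adjustment over the 6 relations computed, the permutation p of r was 6e-05 and 0.00018. In the DEHP and VPA sets r lay between -0.40 and -0.02, with adjusted permutation p from 0.0994 to 0.925.

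When the fit held the 3′/5′ ratio as a covariate, the clofibrate falls of 48 h were called on all 3 probe sets, at a log2 difference of -2.55 for E01184cds_s_at (limma adjusted p = 3.5e-07) and -2.60 for K03241cds_s_at (adjusted p = 0.00149). The 24 h fall of E01184cds_s_at was then called too, at -1.22 (adjusted p = 0.00315). On M26127_s_at no clofibrate call was gained or lost by the covariate.

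The order of the group means of M26127_s_at ran from the VPA vehicle animals of 168 h, at 14003 ± 2147 (SD, n = 5), down to the clofibrate animals of 48 h. The 6 treated groups of 24 and 48 h took the last 6 of the 18 places. Neighbours in that order overlapped in their animals except for 1 pair, the VPA animals of 24 h and the clofibrate animals of 24 h. Array medians differed between the sets, from 212 to 314 for clofibrate and 310 to 417 for VPA. With signals divided by the array median, the same 6 groups came last. Means that then moved by more than their SD were DEHP 168 h treated (8191 to 7346), DEHP 48 h vehicle (11539 to 10545) and VPA 4 h treated (9407 to 7626). The pooled RNA of a group gave a signal inside the range of its animals in 16 of 18 groups and above it in the DEHP group of 4 h and the clofibrate group of 48 h, at 1.24 and 1.44 times the mean of the animals.

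The 9 probe sets of Cyp1a1, Cyp1b1 and Ahr did not reach a mean of 500 in any group, so none of them entered the tests, whereas all 3 Cyp1a2 probe sets did. Cyp1a1, the enzyme usually taken as the readout of receptor activation, read 15.4 to 373 on E00778cds_s_at and lay under the floor of 150 in 74 of 76 arrays. The highest group mean, 134 in the clofibrate vehicle animals of 48 h, was raised most by 1 animal at 373, and the median of that group was 54.5. The arrays that were not under the floor all belonged to that group. The highest mean of a treated group was 85.4, in the clofibrate animals of 4 h. The signals are too near the floor to show a fall. Every treated animal read below the floor of 150, so no rise above it was seen. A rise that stayed below the floor would not have been detected.

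The 4 Cyp1b1 probe sets covered 5.29 to 275 (U09540_g_at), 36.3 to 513 (U09540_at), 13.8 to 355 (X83867cds_s_at) and 2.37 to 207 (rc_AI176856_at), with 29 to 70 of 76 arrays under 150. Of the 4 Ahr probe sets, AF082125_s_at and U04860_at were under 150 in all 76 arrays, AF082126_at in 72 and AF082124_s_at in 39. The highest Ahr group mean was 379 ± 130 (SD, n = 3), on AF082124_s_at in the VPA animals of 4 h.

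When no filter was set, 3 of the 108 tests of these 9 probe sets in the 12 treated comparisons had a limma adjusted p below 0.05 and 5 an unadjusted one. All 3 were VPA tests at 4 or 24 h, where 21.2% and 36.5% of the probe sets that passed the filter were called. The share of all 8740 probe sets called without a filter is not given here, so the 3 calls cannot be set against it. Ahr AF082124_s_at read 362, 516 and 258 in the VPA animals of 4 h, against 49.8 to 320 and 66.8 to 217 in the vehicle animals of 48 and 168 h, a log2 difference of 0.93 ± 0.28 above the floor (adjusted p = 0.0394). Ahr AF082126_at read 61.7, 337 and 202 in the same animals, while all 10 vehicle animals were under 150 (adjusted p = 0.0104). The animal with the highest signal was the same on both Ahr probe sets, the ranges overlapped on each, and the other Ahr probe sets stayed under the floor there. Cyp1b1 X83867cds_s_at was under 150 in the 3 VPA animals of 24 h, at 125, 111 and 73.1, and above it in all 10 vehicle animals (adjusted p = 0.0357). These values come from signals below the level the tests of Cyp1a2 required.

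**Figure D3:**
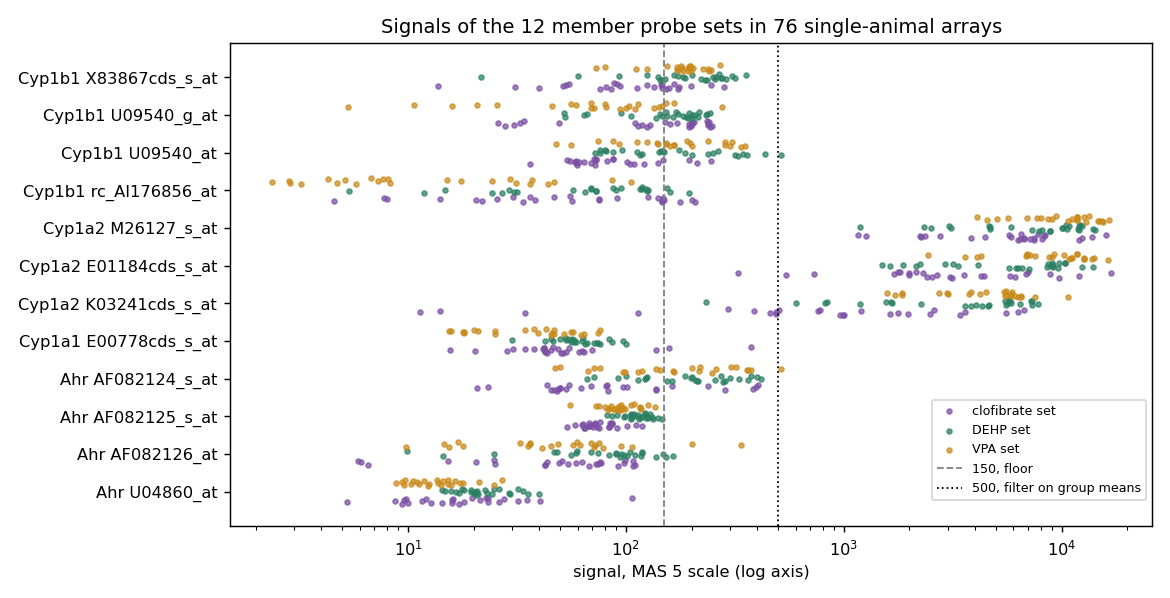
Signals of the 12 member probe sets in the 76 arrays of single animals (log axis), coloured by compound set, with the floor of 150 and the filter value of 500. The 3 Cyp1a2 probe sets lie mostly above 500, and those of Cyp1a1, Cyp1b1 and Ahr lie below it but for single arrays.

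Genes around the receptor did not move in 1 direction with Cyp1a2. Of 11 listed partners of the receptor 5 were on the array and 1 or 2 were measured in a fit. Hsp90ab1, a chaperone that holds the receptor in the cytosol, rose 1.46-fold at 24 h after clofibrate (limma adjusted p = 0.0394) and 1.47- and 1.45-fold at 24 and 48 h after DEHP (adjusted p = 4.94e-05 and 3.54e-05). No partner passed the test after VPA.

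Of the 14 listed genes of the receptor's gene battery, the detoxifying enzymes it is known to induce together, 7 were on the array and 6 or 7 were measured. At 24 and 48 h between 1 and 3 of them rose and 1 or 2 fell, at times when 13.5% to 39.7% of all probe sets were called. The list's median log2 difference lay between -0.24 and 0.26 over the 12 comparisons, and that of all tested probe sets between -0.13 and 0.09. Xdh, xanthine dehydrogenase of purine breakdown, fell at the same times as Cyp1a2, with log2 differences of -1.09 and -1.13 at 24 and 48 h after clofibrate, -1.73 at both times after DEHP, and -1.23 and -1.07 after VPA. Xdh was also called at 4 h after VPA, at -0.76 ± 0.18 (limma adjusted p = 0.00471), and at 168 h after DEHP, at -0.60 ± 0.17 (adjusted p = 0.038). Gsta3, a glutathione transferase, went the other way, 5.92-fold up at 48 h after clofibrate (adjusted p = 3.83e-05), 12.8-fold after DEHP (adjusted p = 7.22e-08) and 2.14-fold after VPA (adjusted p = 0.0214). Its probe set may also read related Gsta transcripts.

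Gsta4, a transferase of lipid peroxidation products, rose 1.99-fold at 48 h after VPA (limma adjusted p = 8.54e-08) and fell 1.36-fold at 24 h after DEHP (adjusted p = 0.0181). Nqo1, a quinone reductase and the best known battery gene on the array, was picked out after its values were seen. It rose 3.70-fold at 24 h (adjusted p = 0.000206) and 2.37-fold at 48 h (adjusted p = 0.0066) after DEHP and passed no test after clofibrate or VPA.

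Of 5 listed genes that supply electrons or haem to P450 enzymes, all were measured. At 48 h after DEHP 2 of them were called higher and 1 lower. Of all probe sets, 13.5% to 39.7% were called in the comparisons of 24 and 48 h. Por, the reductase that passes electrons to every microsomal P450, rose at 4, 24 and 48 h after clofibrate and VPA and at 24 and 48 h after DEHP, by 1.61- to 2.52-fold. Alas1, the entry enzyme of haem synthesis, rose 3.02-fold at 48 h after clofibrate (limma adjusted p = 0.00164) and 2.26-fold at 24 and at 48 h after DEHP. Cyb5r3, the reductase of cytochrome b5, was called lower at 24 h after all 3 compounds on its brightest probe set, with log2 differences of -0.67, -0.92 and -0.28. With the median over its 5 probe sets only the DEHP call remained (adjusted p = 0.00157, against 0.227 for clofibrate and 0.19 for VPA), and Por lost its clofibrate call of 24 h (adjusted p = 0.309). Hmox1, which breaks down haem, rose 1.88-fold at 48 h after VPA (adjusted p = 0.00148). Of 7 listed liver transcription factors, 3 or 4 were measured, and Nfia was 1.43- and 1.54-fold lower at 24 and 48 h after clofibrate on 1 of its 2 measured probe sets (adjusted p = 0.0412 and 0.00836). With the median over both it was not called (adjusted p = 0.508 and 0.413). Usf1, named after its values were seen, was the other factor called lower at 48 h after clofibrate, 1.56-fold (adjusted p = 0.0153). Of all probe sets, 7.74% were called lower at 24 h after clofibrate and 12.7% at 48 h. No factor on that list passed the test after DEHP or VPA.

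**Figure D4:**
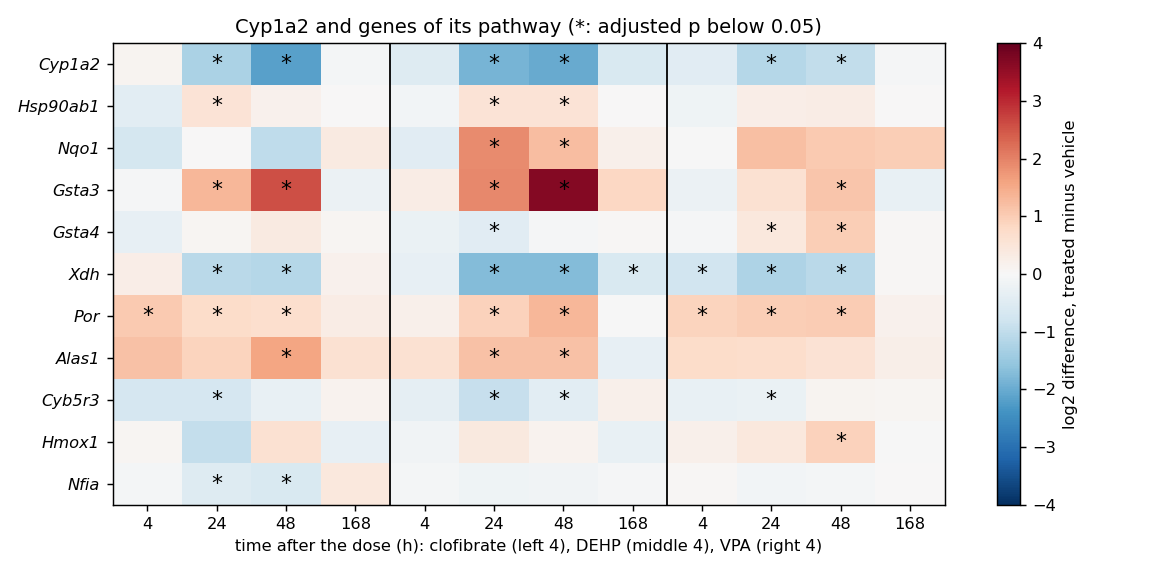
Log2 difference, treated minus vehicle, of Cyp1a2 (M26127_s_at) and 10 pathway genes in the 12 comparisons, blue for lower and red for higher, with a star at an adjusted p below 0.05. Xdh is blue and Por red in the same columns of 24 and 48 h in which Cyp1a2 is blue, and Gsta3 reaches 3.68 at 48 h after DEHP.

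Markers of the cells in the tissue moved in the same samples. Of 4 measured hepatocyte genes, between 1 and 3 were called lower at 24 and 48 h after each compound, with Apoa1 at -1.05 on the log2 scale at 48 h after clofibrate and -1.17 after DEHP. The share of all probe sets called lower was 7.74% at 24 h and 12.7% at 48 h for clofibrate, 17.5% and 21.1% for DEHP, and 15.6% and 18.4% for VPA. The summed signal of the 4 ranged from 192000 to 239000 in the clofibrate animals of 48 h and from 245000 to 386000 in their vehicle animals. Of 3 or 4 measured markers of pericentral hepatocytes, the cells that make most Cyp1a2, Glul was called lower at 48 h, at -1.18 on the log2 scale after clofibrate, -1.14 after DEHP and -1.30 after VPA. Called or not, 2 of 3 measured markers lay lower at 48 h after clofibrate and after DEHP, and 4 of 4 after VPA. Oat was called at -1.91 at 48 h after DEHP and -2.86 after VPA, and Cyp2e1 at -0.36 after VPA. The summed pericentral signal ran from 72900 to 111000 in clofibrate animals of 48 h and from 60100 to 102000 in vehicle, which overlap. It ran from 74400 to 87000 in DEHP animals against 85000 to 101000, which also overlap. In VPA animals it ran from 38900 to 49300 against 62100 to 77400. Of 7 markers of periportal hepatocytes, 3 were called lower and 1 higher at 48 h after clofibrate and after DEHP, and 1 each way after VPA, where the list's median was 0.025. Cps1, the entry enzyme of the urea cycle, was called lower after each compound, at -0.95, -0.47 and -0.58, while Sds after clofibrate (1.64), Arg1 after DEHP (0.32) and Gls2 after VPA (0.35) were called higher. With the median over a gene's probe sets some calls of 48 h were lost, among them Glul, Cps1 and Sds after clofibrate and Cyp2e1 after VPA. Their limma adjusted p was then 0.421, 0.26, 0.0996 and 0.139. On that measure 1 of the 7 periportal genes was called at 48 h after clofibrate. Of the 4 hepatocyte genes 2 were called at 48 h after VPA, against 3 on the brightest probe sets. The part of any of these marker changes in the fall of Cyp1a2 was not tested, and in bulk tissue fewer cells of a type and less RNA per cell cannot be told apart.

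Markers of the other cells were mostly lower or not called. At 48 h 2 of 3 Kupffer cell and leukocyte markers were lower after clofibrate, 2 of 4 after DEHP and 1 of 4 after VPA, and 1 of 3, 3 of 4 and 2 of 4 stellate cell markers, where 12.7%, 21.1% and 18.4% of all probe sets were called lower. With the median over a gene's probe sets the stellate counts were 1, 2 and 1. Of 2 measured erythroid and blood markers, 1 was called lower at 48 h after each compound. Their summed signal ran from 5960 to 11800 in VPA animals of 48 h against 19700 to 41900 in vehicle. Of the endothelial markers, 1 of 2 was called lower at 48 h after DEHP, and 0 of 1 after clofibrate and after VPA. The only marker outside the hepatocyte lists that was called higher at 48 h was Epcam of the bile duct, by 0.70 ± 0.24 after VPA (limma adjusted p = 0.0215).

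The genes whose group means followed Cyp1a2 most closely were Aplp2, Hsd11b1, Lipc, Pam and Dio1, with Pearson r of 0.959, 0.958, 0.950, 0.948 and 0.947 over the 18 groups. These are descriptions over points that share 3 vehicle means, given with no test. Hsd11b1, which regenerates active glucocorticoid, differed from vehicle by -2.39 at 48 h after clofibrate, -2.62 after DEHP and -1.77 after VPA, and by -0.02, -0.64 and 0.06 at 168 h. Dio1, the deiodinase that makes active thyroid hormone in liver, differed by -2.96, -3.01 and -2.38 at 48 h. Lipc, hepatic lipase, differed by -0.77, -1.12 and -0.69 at 48 h. Aplp2, a relative of the amyloid precursor protein, and Pam, which amidates peptides, moved in the same shape over a smaller range, with 48 h differences between -0.83 and -0.25. The other Cyp1a2 probe sets had r = 0.988 (E01184cds_s_at) and 0.932 (K03241cds_s_at).

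**Figure D5:**
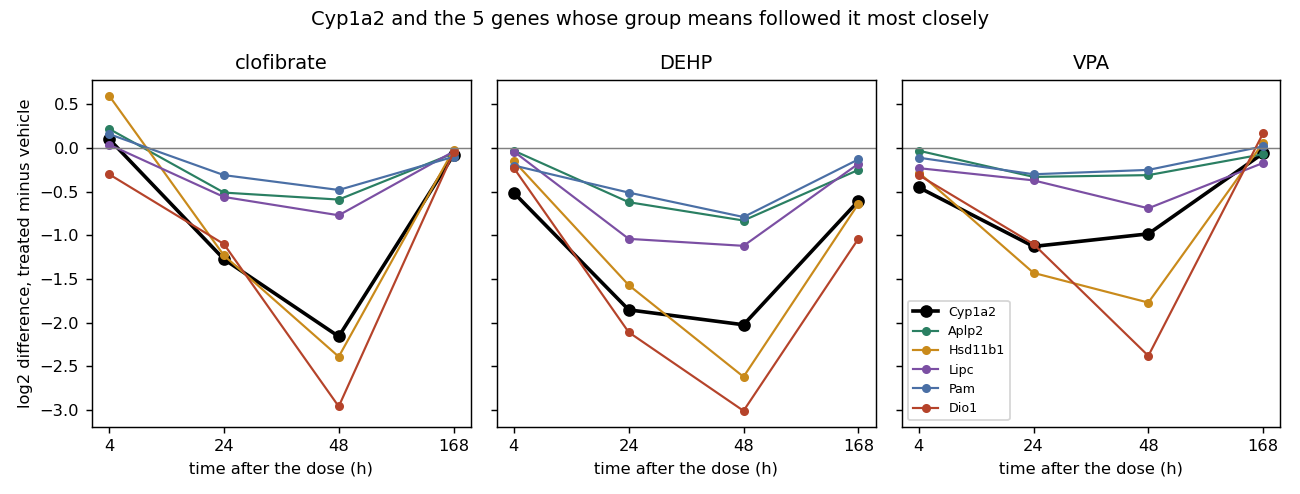
Log2 difference, treated minus vehicle, of Cyp1a2 (thick black line) and of the 5 genes with the highest correlation to it over the 18 groups. Each line is lowest at 24 or 48 h and lies nearer to 0 at 168 h, where Dio1 still differs by -1.04 after DEHP.

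The scan days of the arrays, 14 in all, did not separate treated from vehicle animals completely. In all 6 pairings of compound and scan day that hold both arms at 24 h, and in all 6 at 48 h, M26127_s_at was lower in treated animals, with log2 differences from -2.01 to -1.03 at 24 h and from -2.80 to -0.85 at 48 h. Some pairings hold only 1 treated array. K03241cds_s_at was lower in 5 of 6 pairings at 24 h and 6 of 6 at 48 h. The exception was a clofibrate pairing with 1 treated array, at 1.02. Array medians of the signal ran from 212 to 417, and no 2 arrays shared more than 0.17% equal values. The labels do not say whether animals were handled together, so p-values treat each animal as separate. They set a difference against the spread between animals within groups, pooled over all groups of the fit.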

How the data were processed

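Livers of single rats and pools of them were measured on an Affymetrix rat genome array. The deposited intensities are linear MAS 5 signals that the authors scaled to a target of 1500, from about 10 µg of RNA, per the labels. Scan days were read from the deposited scanner files, whose other fields were not used.

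The platform table gave 1 gene symbol to 7018 of the 8799 probe sets, more than 1 to 308 and none to 1473. The 59 control probe sets were left out, signals under 150 were set to 150, and probe sets with a mean of at least 500 in 1 group of a fit were kept. Group means were fitted per compound, and for all 76 arrays, in R 4.3.3 by limma 3.58.1, using lmFit and a trended eBayes, a fit also tested on simulated data. A listed gene was read from its brightest measured probe set, with the median over its probe sets as an alternative. Every member probe set is named, up to 4 called pathway genes of smallest adjusted p per comparison, and the 5 genes most like Cyp1a2. Members, lists and tests were chosen with earlier results of these data known. Pooled arrays entered no test. Alternatives covered scaling, floor, filter, arrays in the fit, replicate numbers, scan day, RNA quality and single animals. Array number limits the precision.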

Additional observations from a re-analysis of the deposited data

Results flagged for a closer look

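One animal stood apart from its group on a member probe set: M26127_s_at read 11970.0 in clofibrate replicate 1 of 168 h, and the next highest of its 5 animals read 7475.5. This was 1 of 36 pairings of a group with 1 of the 3 Cyp1a2 probe sets, tested on the log2 scale, and chance flags about 1 in 20. Groups of 3 animals were not tested. That animal's log2 3′/5′ ratio was 1.31.

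The response of Cyp1a2 differed between 48 and 168 h. The log2 difference of the responses was 2.08 for clofibrate on M26127_s_at (limma adjusted p = 0.00285). For DEHP it was 1.42 on M26127_s_at (adjusted p = 0.00992), 1.36 on E01184cds_s_at (adjusted p = 0.004) and 2.37 on K03241cds_s_at (adjusted p = 0.00533). For VPA it was 0.92 on M26127_s_at (adjusted p = 0.0139), 1.09 on E01184cds_s_at (adjusted p = 0.038) and 1.54 on K03241cds_s_at (adjusted p = 0.00138).

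The response also differed between compounds, with the 48 h fall of M26127_s_at smaller after VPA than after clofibrate by 1.18 on the log2 scale (limma adjusted p = 0.0332). That call was lost in 4 of 7 other settings and without any 1 of 6 of the 19 animals.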

How the results depend on the processing

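Of 1493 log2 differences of Cyp1a2 recomputed under other settings or without 1 animal, 1402 kept their direction and side of the threshold, 22 lost a call, 21 gained one and 48 changed sign. The falls of M26127_s_at at 24 and 48 h kept their call in 6 of 6 comparisons under median centring, quantile normalization, floors of 75 and 300, no filter, a filter of 1000, no intensity trend, all 18 groups in 1 fit, only the groups compared, the replicate block, the scan day block, the 3′/5′ ratio and array weights. The number of calls in the 12 comparisons ran from 6 to 8. The clofibrate fall at 24 h was not called without the arrays deposited to 1 decimal (-1.05, adjusted p = 0.0616). Settings that added a call of M26127_s_at were a fit of only the groups compared (DEHP 168 h, -0.61, and VPA 4 h, -0.45), median centring (VPA 4 h, -0.59) and quantile normalization (VPA 24 against 4 h, -0.76).

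Replicate numbers were shared between groups, and same-numbered arrays deviated together in few cases (0 to 2 of 4 or 5 pairs over 0.1). So few pairs cannot settle whether the numbers pair the animals, and the animals were treated as unpaired. With the replicate block clofibrate 24 against 4 h lost its call (-1.38, adjusted p = 0.0666), as it did with no filter (-1.38, adjusted p = 0.0979), and VPA against clofibrate at 48 h gave 1.17, VPA against DEHP at 4 h -0.080. VPA against clofibrate at 48 h also lost its call with median centring (1.06), quantile normalization (0.95) and no filter (1.18).

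The sign changed in differences that were not called: M26127_s_at after clofibrate at 168 h with the scan day block (0.067) and array weights (0.0098), after VPA at 168 h with the scan day block (0.0032), after clofibrate at 4 h with the 3′/5′ covariate (-0.21), VPA against DEHP at 4 h with median centring (-0.066), and VPA against clofibrate at 24 h with median centring (-0.015) and quantile normalization (-0.061). E01184cds_s_at changed sign after clofibrate at 4 h against the 168 h vehicle group alone (-0.034), with the covariate (-0.63) and without the arrays of 1 decimal (-0.15), after clofibrate at 168 h with the scan day block (0.045) and after VPA at 168 h with the covariate (-0.017). The cause of these moves was not tested.

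Leaving out 1 animal at a time, M26127_s_at ranged after clofibrate from -0.22 to 0.39 at 4 h, -1.47 to -0.98 at 24 h, -2.30 to -1.92 at 48 h and -0.24 to 0.076 at 168 h, after DEHP from -0.65 to -0.25 at 4 h, -2.10 to -1.65 at 24 h and -2.21 to -1.71 at 48 h, and after VPA from -1.41 to -0.95 at 24 h, -1.11 to -0.80 at 48 h and -0.13 to 0.045 at 168 h. The step from 4 to 24 h ranged from -1.66 to -1.05 for clofibrate and -0.96 to -0.50 for VPA, that from 24 to 48 h from -0.43 to 0.089 for DEHP and -0.16 to 0.31 for VPA, and the clofibrate vehicle difference from -0.19 to 0.20. VPA against clofibrate ranged from -0.14 to 0.35 at 24 h, 0.94 to 1.35 at 48 h and -0.13 to 0.18 at 168 h, VPA against DEHP from -0.20 to 0.20 at 4 h and 0.73 to 1.22 at 48 h, and DEHP against clofibrate from -0.10 to 0.45 at 48 h. At 4 h VPA against clofibrate ranged from -0.84 to -0.23 and DEHP against clofibrate from -0.90 to -0.29, both nearest 0 without clofibrate replicate 2. E01184cds_s_at was also called at 4 h after VPA in the fit of only the groups compared (-0.51, adjusted p = 0.0359). E01184cds_s_at ranged from -0.25 to 0.83 at 4 h and -0.56 to 0.052 at 168 h after clofibrate and -0.057 to 0.14 at 168 h after VPA, and K03241cds_s_at from -0.18 to 1.13 at 168 h after clofibrate.

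Some calls rested on single animals. The clofibrate fall at 24 h was not called without clofibrate replicate 3 of 24 h. Clofibrate 24 against 4 h was not called without replicate 2 or 3 of 4 h or replicate 1 or 3 of 24 h, with adjusted p from 0.0661 to 0.248. VPA against clofibrate at 48 h was not called without VPA replicate 2 or 3, VPA vehicle replicate 4, clofibrate replicate 1 or 5 or clofibrate vehicle replicate 1, with adjusted p from 0.0647 to 0.0922. VPA 24 against 4 h was called without VPA replicate 3 of either time, and VPA against DEHP at 48 h without DEHP replicate 3 or 5 or VPA replicate 4.

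The number of all probe sets called moved over 1.5 times for clofibrate at 4 h (124, then 79 to 646), 24 h (488, then 873 to 942) and 48 h (722, then 471 to 1379), DEHP at 4 h (118, then 59 to 72), VPA at 4 h (906, then 559), DEHP 48 against 24 h (129, then 83), VPA against clofibrate at 4 h (195, then 117 to 293), VPA against DEHP at 4 h (193, then 296 to 327) and 24 h (208, then 131), and DEHP against clofibrate at 4 h (12, then 4 to 20), and from 0 to 1 or 2 in 5 comparisons. Signals near the floor limit what can be said of Cyp1a1, Cyp1b1 and Ahr.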
